A study of Mus musculus with 6 samples.

Results

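The genes described here code for tubulins, kinesins, subunits of cytoplasmic dynein 1 and 5 classical microtubule-associated proteins (MAPs), measured as RNA in adult mouse retina. They were chosen by gene symbol: every symbol starting with Kif or Kifc, Tuba, Tubb or Tubg, each followed by a number, every symbol starting with Dync1, and Map1a, Map1b, Map2, Map4 and Mapt. The rule gave 66 of the 18193 genes that the arrays read, through 158 probe sets, each a group of short oligonucleotides matching a stretch of a transcript. The study asked whether loss of Trim9, a ubiquitin ligase gene of the tripartite motif family whose protein can bind microtubules, changes the adult retina. Retinas of 3 Trim9 KO mice and 3 WT littermates were hybridized to Affymetrix mouse genome arrays, with 1 array per sample. The KO allele lacks exon 1 of Trim9 and came from a cross with CMV-cre mice, in which a ubiquitous viral promoter drives Cre, so that the loss is not limited to the retina. The labels give no age beyond adult, and no treatment or other allele is given for either group. One treatment remark speaks of embryos, whereas the tissue is labelled adult retina. The labels give no litter for any sample.

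Microtubules are hollow polymers of alpha- and beta-tubulin, and gamma-tubulin starts their growth. Kinesins are motors, most of which walk towards the growing plus ends with vesicles, organelles or ciliary cargo, whereas a separate set works on the spindle and the midbody of dividing cells. Cytoplasmic dynein 1 carries cargo the other way, and MAPs bind along the polymer and set its stability and spacing. In the retina these genes serve ganglion cell axons, the long processes of all other neurons and the connecting cilium of photoreceptors, through which outer segment proteins pass. The adult mouse retina has few dividing cells.

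Values are log2(intensity + 16), called log2 signal, and a difference is the mean of Trim9 KO arrays minus the mean of WT arrays. Each gene was read by its brightest probe set, the one with the highest mean over the 6 arrays. Trim9 itself had a log2 signal of 10.56, 9.00 and 8.58 in Trim9 KO retinas, against 12.05, 10.80 and 10.72 in WT retinas. All Trim9 KO arrays thus lay below all WT arrays (difference -1.81, SE 0.99). Of its other 3 probe sets, 1 also separated the genotypes (-2.48) and the others did not (-0.77 and -0.58). Trim9 KO replicate 1 stood apart, with Pearson's r of 0.466 to 0.516 across probe sets with the other arrays, which correlated with each other at 0.655 to 0.887. Results are therefore also given without it. Median intensity was 218 to 807 per array, and the 3' to 5' ratio of the Actb control, a measure of RNA integrity, was 2.83, 94.5 and 90.5 on Trim9 KO arrays and 20.2, 9.87 and 3.43 on WT arrays. The same ratio of the Gapdh control ordered the arrays otherwise, with 134, 153 and 163 on Trim9 KO arrays and 310, 82.0 and 0.905 on WT arrays, so that WT replicate 3 stood apart in it. All 10 rod markers measured were above the median of all probe sets. In whole retina, fewer cells of a type and less RNA per cell cannot be told apart.

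No member passed the test of genotype. limma with Benjamini-Hochberg adjustment called 0 of 45037 probe sets (0%), and the lowest adjusted p, 0.999, was shared by members and other genes. At an unadjusted p under 0.05 there were 1296 probe sets in all, 2 of the 158 probe sets of members (one each of Kif21b and Kif23) and 0 of the 66 brightest ones (2.56% of all genes). The standard error of a member's difference was 0.891 to 1.59 (median 0.997), so with 3 arrays against 3 a difference of that size could not be told from the spread between replicates. The values below are therefore descriptions.

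Trim9 KO retinas had the higher mean for 38 of the 66 genes and the lower for 28. This is 57.6% higher, where 55.2% of all genes were. Their median difference was 0.30, against 0.14 over all genes, and without Trim9 KO replicate 1 it was -0.06. All probe sets together had a median of 0.18, which quantile normalization brought to 0.015 and equal array medians to -0.14, so every difference is to be read against that shift. Low signals carried much of the upward tilt. Of the genes at or below the median signal 65.4% were higher, as were 12 of 14 such members (median 0.85), whereas 50% of brighter genes and 26 of 52 brighter members were higher (median 0.016).

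**Figure D1:**
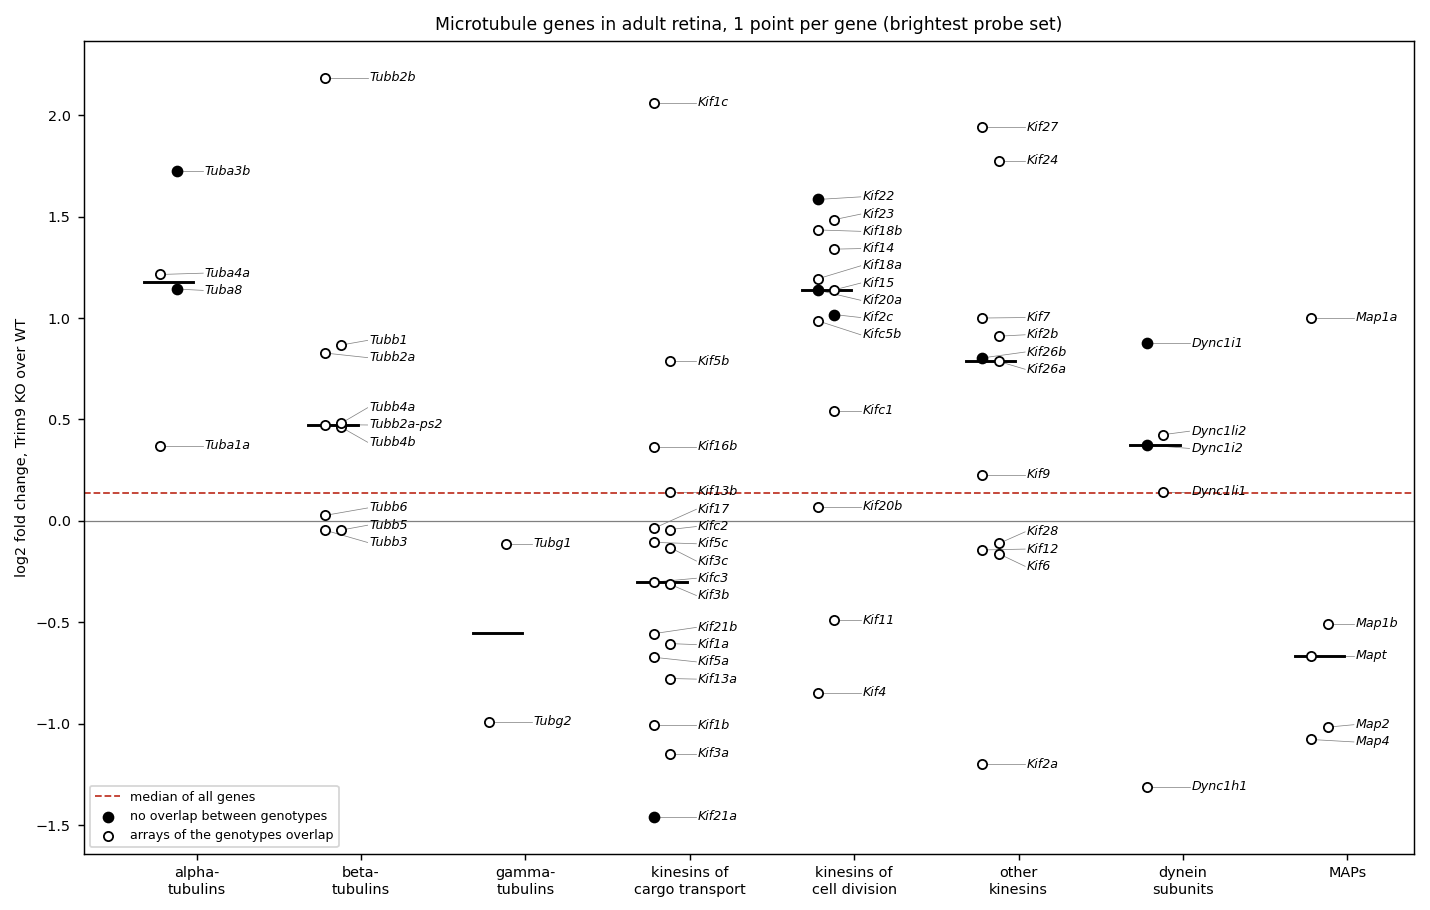
Difference in log2 signal (Trim9 KO over WT) of each of the 66 genes, by role, from its brightest probe set; short bars are group medians, the dashed line is the median of all genes (0.14), and filled points mark genes whose 3 Trim9 KO and 3 WT arrays do not overlap. Kinesins of cell division lie mostly above the line (median 1.14), and kinesins of cargo transport (-0.30) and MAPs (-0.67) mostly below it.

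In 9 members the arrays of the genotypes did not overlap. All Trim9 KO arrays were above all WT arrays in 8 members, 12.1% of them, where the share over all genes was 5.35%. They were Tuba3b, Tuba8, Kif22, Kif20a, Kif2c, Kif26b, Dync1i1 and Dync1i2. The count of 8 did not hold under other scalings. It was 2 after quantile normalization (5.40% of all genes), 1 with equal array medians (3.66%) and 5 of 52 after dim probe sets were left out (4.50%). The other 3 of the 8 were among the 14 dim members, where 7.04% of dim genes had no overlap. Only Kif21a had all Trim9 KO arrays below all WT arrays, 1.52% of members against 2.89% of all genes, and with equal array medians there was none. With 3 arrays against 3 the exact two-sided permutation test of a single gene cannot go below 0.1, the value it gave for each of these genes.

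**Figure D2:**
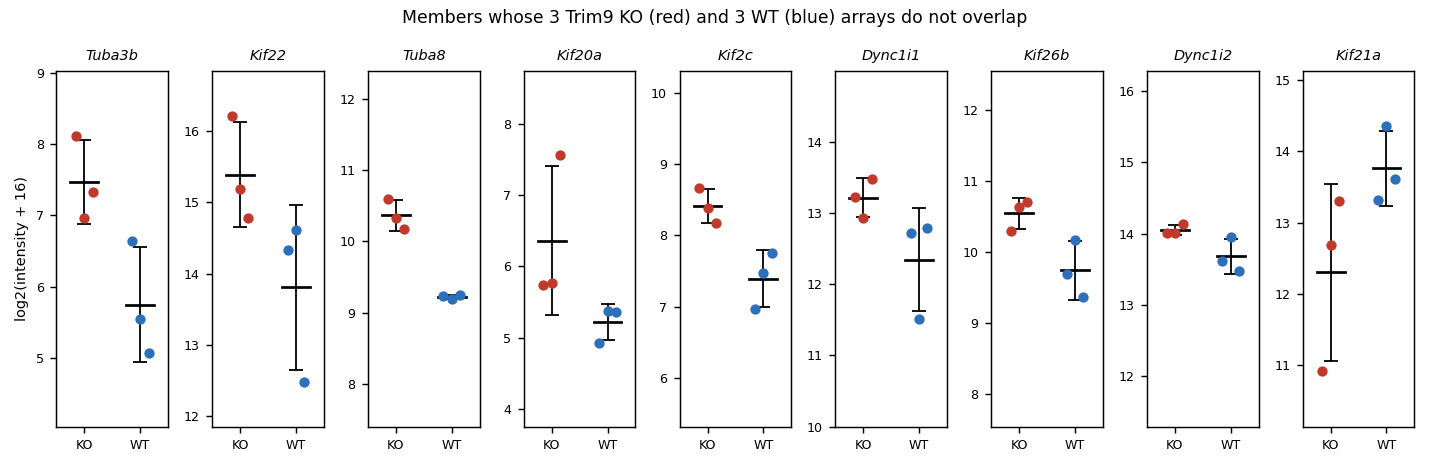
Log2 signal of the 9 members whose genotypes do not overlap, 1 point per array, with Trim9 KO (red) left of WT (blue); horizontal bars are means and error bars are SD over 3 arrays. Every panel spans the same number of log2 units, and the gap between the nearest arrays of the genotypes exceeds the SD of both genotypes for Tuba8 and Kif2c.

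Kinesins of cell division lay mostly one way. Of 13 genes 11 had a higher mean in Trim9 KO retinas, with a median difference of 1.14 against 0.14 over all genes. Their other probe sets ran the same way: 24 of the group's 26 probe sets were higher, whereas 22 of the 59 probe sets of transport kinesins were. The exceptions were the brightest probe sets of Kif4 and Kif11.

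A short DNA element is shown here because this group shares it. Promoters of many genes that are switched on late in the cell cycle hold the cell cycle homology region, whose core letters are TTTGAA, often with CCAAT boxes upstream. Both motifs were picked after the differences had been seen, and only these 2 were searched, on both strands, from 250 bases before to 50 after the start site in the RefSeq promoter table (GRCm38.p6). Neither motif contains the other, although they may share an end base. The table matched 52 of the 66 members. TTTGAA was present in 11 of 12 promoters of division kinesins (91.7%), 0 of 11 of transport kinesins, 0 of 4 of dynein subunits and 0 of 4 of MAPs. It was also in 1 of 4 promoters of alpha-tubulins (25%), 1 of 6 of beta-tubulins (16.7%), 0 of 1 of gamma-tubulins and 2 of 10 of other kinesins (20%), and in 18.1% of all 27025 promoters. CCAAT was present in 8 of 12 division kinesins (66.7%), 4 of 6 beta-tubulins (66.7%), 2 of 4 alpha-tubulins, 5 of 10 other kinesins, 2 of 4 MAPs (50% each), 3 of 11 transport kinesins (27.3%), 0 of 4 dynein subunits, 0 of 1 gamma-tubulins and 37.9% of all promoters. Its share in division kinesins was thus no higher than in beta-tubulins. In 9 of the 11 promoters the match nearest the start site began within 60 bases of it. The stretches below run 5′ to 3′ along the gene, with that match in capitals (TTCAAA is the same element read from the other strand). The first 4 belong to genes with a higher mean in Trim9 KO retinas and the last 2 to the 2 genes with a lower one.
Kif22: gggccccggtaaTTCAAAagagagaagcgg
Kif2c: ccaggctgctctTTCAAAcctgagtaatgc
Kif18b: cggaccggctagTTTGAAcgcgccgcgccg
Kif23: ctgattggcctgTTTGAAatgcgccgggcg
Kif4: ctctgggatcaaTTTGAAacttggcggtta
Kif11: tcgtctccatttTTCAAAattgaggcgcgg
Their positions are chr7:127042420-127042449 (minus strand) for Kif22, chr4:117178858-117178887 (minus) for Kif2c and chr11:102925104-102925133 (minus) for Kif18b. Those of the others are chr9:61946780-61946809 (minus) for Kif23, chrX:100626072-100626101 (plus) for Kif4 and chr19:37376351-37376380 (plus) for Kif11. The element was thus present whichever way the mean lay, and a match in these letters is a description of the window, not a binding site. Kifc1 and Kifc5b, near-identical genes, also have near-identical stretches at this place. Kif18a had no match.

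Kif22, a chromokinesin that pushes chromosome arms outward, had a log2 signal of 16.22, 15.18 and 14.78 in Trim9 KO retinas, against 14.33, 14.61 and 12.48 in WT retinas. The difference was 1.58 (SE 1.01), the lowest array being WT replicate 3. Another Kif22 probe set also separated the genotypes (1.83) and the third gave 0.30. The name of the brightest one marks it as open to cross-hybridization, and so does that of Kif2c. Kif2c, a depolymerase that frees wrongly attached chromosomes, had 8.66, 8.39 and 8.18 in Trim9 KO retinas and 6.96, 7.47 and 7.75 in WT retinas. All 4 of its probe sets were higher (0.37 to 1.30), and the brightest differed by 1.02 (SE 0.90). Kif20a, which works at the central spindle in cytokinesis, was dim, with 5.74, 5.77 and 7.57 in Trim9 KO retinas and 4.93, 5.38 and 5.35 in WT retinas. Its difference of 1.14 (SE 0.96) was 0.53 without Trim9 KO replicate 3, the one array well above the rest.

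Kif18b, which shortens microtubule ends at the spindle, had 10.81, 9.91 and 8.47 in Trim9 KO retinas and 8.46, 7.77 and 8.66 in WT retinas (1.43, SE 0.99). Only WT replicate 3 reached into the Trim9 KO range. Kif23, a central spindle motor, shows how far 1 array can go. Its log2 signal was 12.18, 9.64 and 8.78 in Trim9 KO retinas and 9.43, 11.08 and 5.64 in WT retinas, and the difference of 1.49 (SE 1.44) was -0.05 without WT replicate 3. Kif14, a motor of cytokinesis, was at 10.74 on Trim9 KO replicate 1 and between 4.20 and 7.37 on the other 5 arrays. Its difference of 1.34 (SE 1.59) was -0.64 without that array. Among the 2 genes with a lower mean, Kif11, the motor that slides spindle poles apart, had 8.48, 9.57 and 8.51 in Trim9 KO retinas and 9.92, 9.55 and 8.56 in WT retinas, and its other 2 probe sets were higher. Kif4, a chromosome-bound motor, had 6.20, 9.74 and 7.90 in Trim9 KO retinas and 9.09, 9.18 and 8.11 in WT retinas (-0.85, SE 1.10). It was 0.026 without Trim9 KO replicate 1. Kif23, Kif14, Kif4 and Kif11 are named here outside the rule, after their values were seen.

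Markers of dividing cells lay the same way as these kinesins. All 9 measured had a higher mean in Trim9 KO retinas (median 1.11), although only 4 were above the median signal of all probe sets. Their summed intensity was 3442 to 12187 on Trim9 KO arrays and 2199 to 4977 on WT arrays, and it overlapped between genotypes. Mki67, the standard proliferation antigen, had 10.52, 8.80 and 5.40 in Trim9 KO retinas, against 4.37, 5.33 and 4.70 in WT retinas (3.44, SE 1.27). Its signal on Trim9 KO replicate 3 was close to the highest WT array. Trim9 KO replicate 1 was the highest of the 6 arrays for 7 of the 13 division kinesins (53.8%) and for 31.3% of all genes. Without it 9 of the 13 kinesins had a higher mean (median 0.78), and 8 of the 9 markers did (median 0.43). Over all single arrays left out, the kinesin median was 0.78 to 1.28 and 9 to 11 were higher. It was 0.78 after quantile normalization and 0.82 with equal array medians. Of the 13, 5 were dim. Markers of other cells were uneven too, since all 9 of retinal pigment epithelium were higher (median 0.87) and so were 7 of 9 lens markers (0.68). Only 1 of the 9 lens markers was above the median signal, and their median was 0.0024 to 1.46 with single arrays left out. Of rod markers 2 of 10 were higher (-0.61), of Müller glia 2 of 9 (-0.54) and of horizontal cells 1 of 6 (-0.32). The part of these shifts in the kinesin values was not tested.

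**Figure D3:**
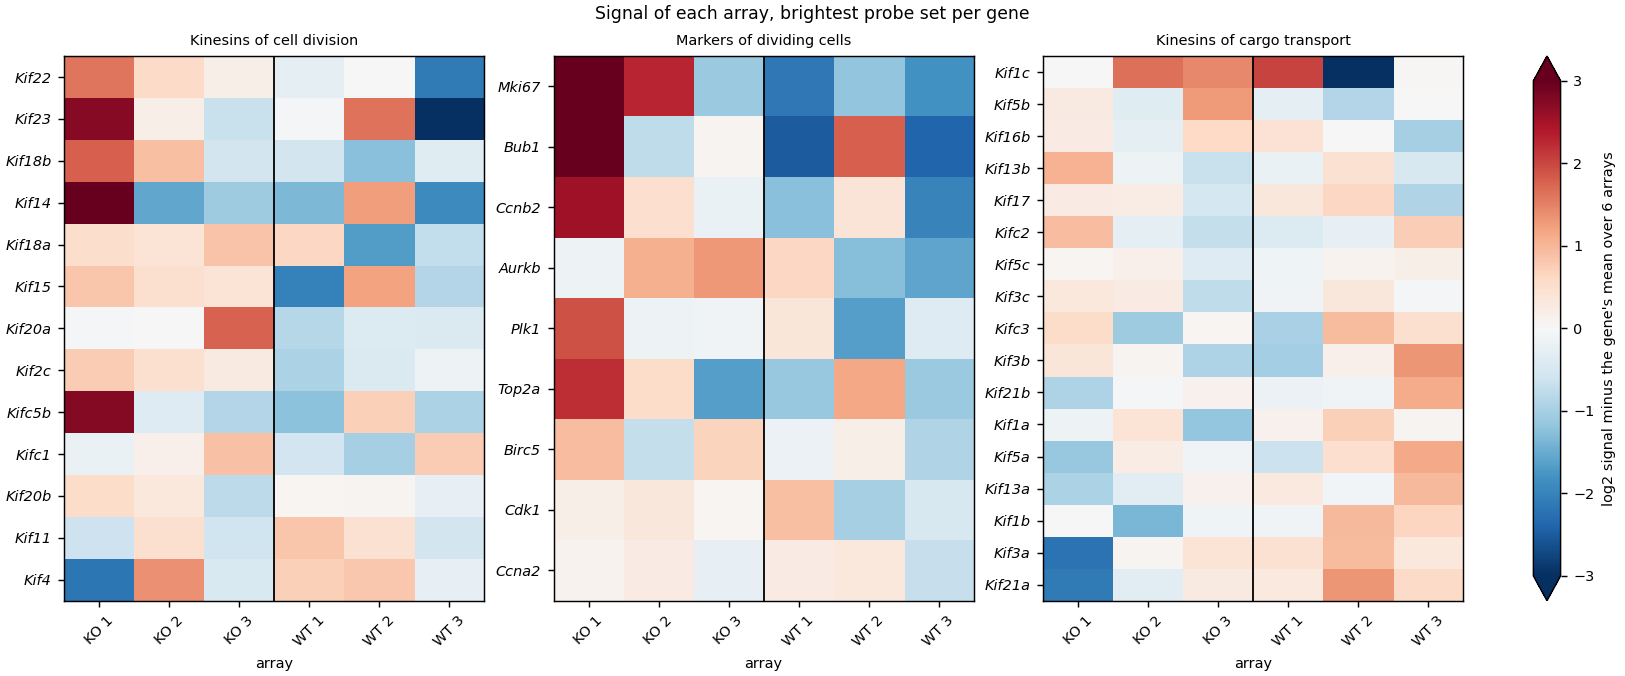
Log2 signal of each array minus the gene's mean over 6 arrays, for kinesins of cell division (left), markers of dividing cells (middle) and kinesins of cargo transport (right), with Trim9 KO arrays left of WT arrays and colours clipped at 3 log2 units either way. Trim9 KO replicate 1 is the highest array for 7 of the 13 division kinesins, and transport kinesins are paler and run mostly the other way.

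Kinesins of cargo transport lay the other way. Of 17 genes 13 were lower in Trim9 KO retinas, with a median of -0.30, and all 17 were above the median signal. The count depended on single arrays, and leaving each out in turn gave 3 to 9 higher genes and a median of -0.69 to 0.06. With quantile normalization it was -0.36 and with equal medians -0.62. The test of the difference between this group and the division kinesins was not made, since the members were chosen with results known.

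Kif21a, a motor of axons that also restrains microtubule growth at the cell edge, had a log2 signal of 10.91, 12.69 and 13.31 in Trim9 KO retinas, against 13.32, 14.35 and 13.61 in WT retinas. The difference was -1.46 (SE 1.00), and -0.76 without Trim9 KO replicate 1, the lowest array. Its 3 probe sets all had a lower mean (-1.46 to -0.89), and the nearest arrays of the genotypes, Trim9 KO replicate 3 and WT replicate 1, were almost level. Kif3a, a kinesin-2 subunit that drives transport into cilia and is needed in photoreceptors, had 9.76, 12.05 and 12.37 in Trim9 KO retinas and 12.42, 12.92 and 12.28 in WT retinas. All 4 of its probe sets were lower (-1.15 to -0.50), but the brightest differed by only -0.33 without Trim9 KO replicate 1. Its partner Kif3b had 9.92, 9.64 and 8.61 in Trim9 KO retinas and 8.52, 9.70 and 10.88 in WT retinas (-0.31, SE 1.00), and the groups overlapped fully. Its other probe sets gave -1.87 with all Trim9 KO arrays below all WT arrays, and -0.25 and 0.45 with overlap. The other kinesin-2 motor, Kif17, had 10.20, 10.17 and 9.44 in Trim9 KO retinas and 10.28, 10.57 and 9.06 in WT retinas (-0.04, SE 0.94). Its other 2 probe sets were both higher, at 2.69 and 1.04, with overlap.

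The conventional kinesin heavy chains did not run together. Kif5a, the form enriched in neurons, had 11.75, 13.12 and 12.78 in Trim9 KO retinas and 12.25, 13.39 and 14.02 in WT retinas (-0.67, SE 0.97), with all 3 probe sets lower. Kif5b, the ubiquitous form, had 11.73, 11.11 and 12.73 in Trim9 KO retinas and 11.18, 10.57 and 11.46 in WT retinas (0.79, SE 0.94), and its 6 probe sets ranged from -1.74 to 0.79. Kif5c was at -0.11 (SE 0.89), and its 4 probe sets ranged from -0.57 to 2.48. Kif1a, which carries synaptic vesicle precursors, had 8.70, 9.24 and 7.67 in Trim9 KO retinas and 8.96, 9.55 and 8.91 in WT retinas, and both its probe sets gave about the same difference (-0.60 and -0.57). Kif1c, a vesicle motor of the same family, had the largest difference of the group, 2.06 (SE 1.58), and it rested on 1 array. Its log2 signal was 10.58, 12.25 and 12.04 in Trim9 KO retinas and 12.62, 5.45 and 10.62 in WT retinas. Without WT replicate 2 the difference was 0.0049, and its other 3 probe sets gave -0.13 to 0.66. The remaining transport kinesins ranged from -1.01 (Kif1b) to 0.37 (Kif16b).

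The other 11 kinesins, which include ciliary, depolymerizing and atypical forms, were higher in 7 cases and lower in 4 (median 0.79), with only 5 genes above the median signal. Kif26b, an atypical kinesin that is needed for kidney development in mice, had 10.30, 10.63 and 10.71 in Trim9 KO retinas and 9.68, 10.17 and 9.36 in WT retinas (0.80, SE 0.90). The gap between the nearest arrays was small. Kif24, which restrains the outgrowth of primary cilia, had 10.75, 8.98 and 8.03 in Trim9 KO retinas and 5.52, 9.46 and 7.45 in WT retinas. Its 3 probe sets were all higher (1.31 to 1.78) while the groups overlapped. Kif27, a relative of the Hedgehog pathway kinesin Kif7, had 10.32, 6.87 and 8.51 in Trim9 KO retinas and 5.82, 8.91 and 5.14 in WT retinas (1.94, SE 1.27). Both genes were high on Trim9 KO replicate 1 and WT replicate 2, the arrays with the highest median intensity. Kif2a, a depolymerase, lay the other way at -1.20 (SE 0.93), and leaving out single arrays gave -1.53 to -0.96. Its 5 probe sets ranged from -1.20 to 0.38. Unlike Kif2c, also a depolymerase, it was not listed as a division kinesin, so the 11 of 13 higher in that group leaves it out. The lists were made with earlier results known. Kif2a is named outside the rule, after its values were seen.

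Among the 15 tubulins 11 had a higher mean in Trim9 KO retinas, with a median of 0.48 that was 0.25 after quantile normalization and 0.15 with equal medians. All 4 alpha-tubulins were higher (median 1.18), and the median was 0.72 when all probe sets of a gene were averaged. Tuba8, a divergent alpha-tubulin, gave the tightest separation, with 10.60, 10.33 and 10.17 in Trim9 KO retinas and 9.24, 9.19 and 9.24 in WT retinas. The SD of the 3 WT arrays was 0.03 and the difference was 1.14 (SE 0.89, where limma pools the spread of all probe sets). It was 0.82 with equal medians, and 1.03 to 1.24 with single arrays left out, and its other probe set gave 0.95 with overlap. Tuba3b, best known from testis, was dim, with 8.12, 6.97 and 7.32 in Trim9 KO retinas and 6.63, 5.54 and 5.07 in WT retinas (1.72, SE 0.95). The 2 probe sets that read Tuba3b together with Tuba3a gave -2.78 (SE 1.58) and -0.49 (SE 1.63), with overlap. Tuba1a, the main alpha-tubulin of developing neurons, had 17.13, 19.29 and 17.76 in Trim9 KO retinas and 19.22, 17.16 and 16.68 in WT retinas. Its difference of 0.37 (SE 1.07) was -0.03 after quantile normalization. Tuba4a, the remaining alpha-tubulin, differed by 1.21 (SE 0.97), and its 3 probe sets ranged from -0.91 to 1.21.

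The alpha-tubulin genes are close in sequence. In all, 8 probe sets name a gene that fits the symbol rule together with another gene, and those of Kif27 and Tubb2b are among them. Tuba1b and Tuba1c were read only by such probe sets and are not counted. One that reads Tuba1c and Gm6682 had intensities of 922, 1413 and 2658 in Trim9 KO retinas and 500, 146 and 575 in WT retinas, without overlap, whereas the other for the same pair did overlap. The brightest probe set of Tuba1a is of the kind that may bind related transcripts, so its value may be shared with these genes.

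Of 9 beta-tubulins 7 had a higher mean (median 0.48), and none separated the genotypes. Tubb2b, an isotype needed for the migration of newborn neurons, had the largest difference of all members, 2.18 (SE 1.19). Its log2 signal was 13.72, 12.35 and 11.96 in Trim9 KO retinas and 8.33, 12.54 and 10.60 in WT retinas. WT replicate 2 lay inside the Trim9 KO range, and without WT replicate 1 the difference was 1.10. A dimmer probe set that reads Tubb2b together with Tubb2a-ps2 gave 0.46 (SE 1.29), and -1.04 without Trim9 KO replicate 1. Tubb2a, a near copy of Tubb2b, had 15.68, 17.18 and 16.34 in Trim9 KO retinas and 16.73, 15.19 and 14.80 in WT retinas (0.83, SE 0.99). Tubb3, the neuronal beta-tubulin used to stain ganglion cells, had 10.55, 10.40 and 9.82 in Trim9 KO retinas and 9.11, 9.41 and 12.41 in WT retinas, with a difference of -0.05 that was 1.00 without WT replicate 3. Tubb4a, a beta-tubulin of brain and myelinating cells, had 9.80, 11.37 and 11.51 in Trim9 KO retinas and 10.10, 7.87 and 13.28 in WT retinas, a WT spread (SD 2.72) far wider than its difference of 0.48. One of the 9, Tubb2a-ps2, is a pseudogene by its symbol that the rule also took in. The gamma-tubulins Tubg1 and Tubg2, which nucleate microtubules, had differences of -0.11 (SE 1.37) and -0.99 (SE 1.18). The second probe set of Tubg2 went the other way, at 2.47 with overlap. Tubg1 had 11.50, 8.92 and 7.49 in Trim9 KO retinas and 6.87, 10.42 and 10.96 in WT retinas, and Tubg2 had 9.61, 7.27 and 6.73 in Trim9 KO retinas and 7.05, 9.21 and 10.32 in WT retinas. Both were thus high on Trim9 KO replicate 1 and on WT replicates 2 and 3.

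Of the 5 dynein subunits 4 had a higher mean in Trim9 KO retinas (median 0.37), and of their 7 probe sets 4 were higher and 3 lower. The heavy chain Dync1h1, which holds the motor, had 11.28, 11.04 and 11.79 in Trim9 KO retinas and 11.86, 11.68 and 14.50 in WT retinas. Its difference of -1.31 (SE 1.05) was -0.40 without WT replicate 3, and its second probe set gave -0.75. The intermediate chains, which tie the motor to dynactin, were both higher without overlap. Dync1i1, the brain-enriched form, had 13.23, 12.94 and 13.48 in Trim9 KO retinas and 12.72, 11.51 and 12.79 in WT retinas (0.87, SE 0.93). Dync1i2, the ubiquitous form, had 14.01, 14.01 and 14.14 in Trim9 KO retinas and 13.62, 13.95 and 13.48 in WT retinas, a difference of 0.37 (SE 0.89) that was 0.05 with equal array medians. Each was read by 1 probe set. The light intermediate chains Dync1li1 and Dync1li2, which bind cargo adaptors, were at 0.14 and 0.43 with overlap. Dync1li1 was at -0.18 with equal array medians, and the second probe set of Dync1li2 gave -0.32.

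Of the 5 MAPs 4 were lower in Trim9 KO retinas (median -0.67), none without overlap, and 12 of their 18 probe sets were lower. The median was -1.0 to -0.52 with single arrays left out and -0.99 with equal medians. Map4, the main MAP outside neurons, had 11.35, 12.39 and 13.68 in Trim9 KO retinas and 13.70, 12.52 and 14.43 in WT retinas (-1.08, SE 1.03). Without Trim9 KO replicate 1 the difference was -0.52, and its 5 probe sets ranged from -2.46, without overlap, to 0.91. Map2, a MAP of dendrites and cell bodies, had 11.95, 13.43 and 13.88 in Trim9 KO retinas and 13.85, 13.39 and 15.06 in WT retinas (-1.02, SE 1.00). Its 4 probe sets ranged from -1.02 to 2.31, and their mean was above 0.

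Mapt, which codes for the axonal protein tau, had 10.18, 10.58 and 10.33 in Trim9 KO retinas and 9.33, 10.88 and 12.88 in WT retinas. All 4 Mapt probe sets were lower (-2.60 to -0.31), yet the brightest was at 0.26 without WT replicate 3. Map1b, a MAP of growing axons, had 10.02, 8.15 and 7.55 in Trim9 KO retinas and 9.00, 9.55 and 8.70 in WT retinas (-0.51, SE 1.00). Map1a, its counterpart in mature neurons, was the one with a higher mean, at 9.96, 10.19 and 10.41 in Trim9 KO retinas and 9.71, 7.71 and 10.14 in WT retinas (1.00, SE 1.00). Without WT replicate 2 the difference was 0.26, and the second Map1a probe set gave -1.68. WT replicate 3 was the highest array for 3 of the 5 MAPs, as it was for Tubb3, Tubb4a and Dync1h1. The median log2 signal of 11 ganglion cell markers was 11.01, 11.01 and 10.92 on Trim9 KO arrays and 9.87, 11.98 and 13.46 on WT arrays. It was highest on WT replicate 3, which also stood apart in the Gapdh ratio (0.905). This was not particular to ganglion cells. The medians of rod (16.73), cone (13.82), bipolar (13.44) and amacrine markers (12.74) were also highest on that array, whereas those of Müller glia and horizontal cells were not. Of the ganglion cell markers 5 were higher and 6 lower (median -0.08). Their summed intensity was 81917 to 183652 on Trim9 KO arrays and 63294 to 192522 on WT arrays. It was highest on WT replicate 1, with 146946 on WT replicate 3. The part of any of these markers in the MAP values was not tested.

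**Figure D4:**
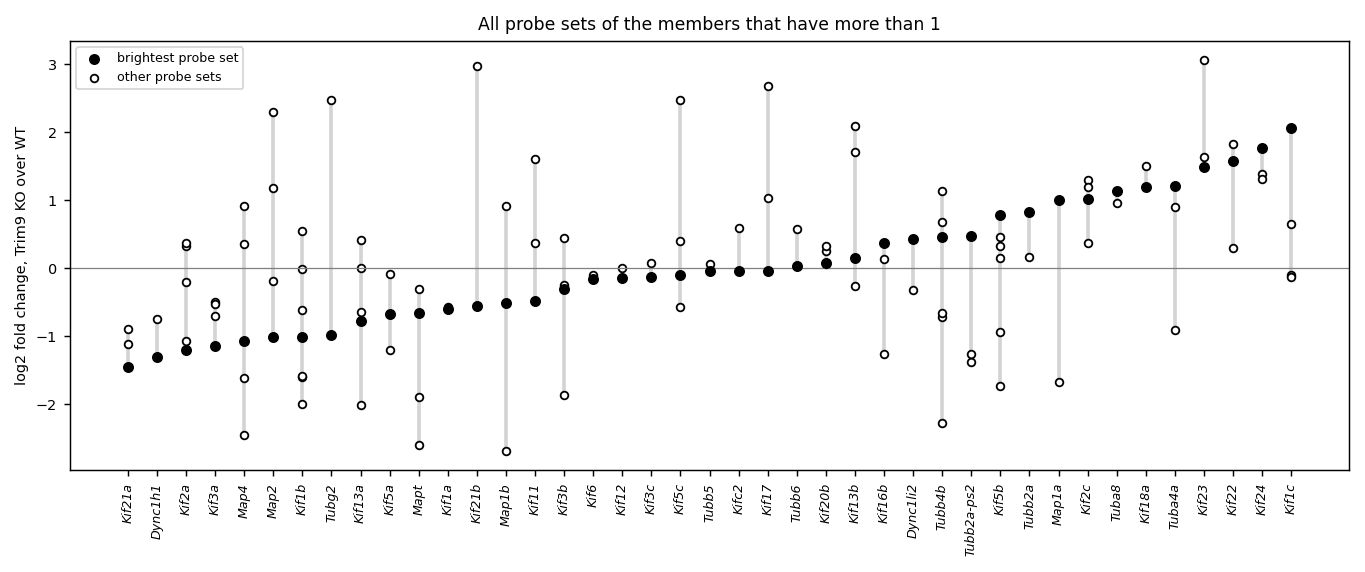
Difference in log2 signal (Trim9 KO over WT) of every probe set of the 41 members read by more than 1, ordered by the brightest probe set (filled); open points are the other probe sets and grey lines join those of a gene. Of the 41 genes 16 have all points on one side of 0, and 18 span more than 2 log2 units.

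Probe sets of a gene often did not run together. Of the 41 members with several, 16 (39.0%) had all on one side of 0, close to the 37.6% of 8969 other genes. The median span within a member was 1.58 log2 units, wider than the median absolute difference of 0.79 over the 66 members. Over all 158 probe sets 87 were higher and 71 lower, 11 of them without overlap above and 3 below, where the shares over all probe sets were 5.16% and 2.76%. Map1b had the widest span of the members, -2.69 to 0.92. In Kif21b, a motor of neurons, the brightest probe set gave -0.56, and the other gave 2.97 without overlap.

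Genes whose products act on microtubules but that the symbol rule left out were read from 9 lists, of which 119 of 130 entries were measured. None passed the test. In Trim9 KO retinas 50 were higher and 69 lower, and the median was -0.26 (-0.36 to -0.04 with single arrays left out), against 0.14 over all genes. Of the 119, 108 were above the median signal, and all genes above it had a median of -0.0005. No partner gene had all Trim9 KO arrays above all WT arrays, where 5.35% of all genes did. All Trim9 KO arrays lay below all WT arrays in 1 partner gene, and in 2.89% of all genes. The partner gene was Katnal1, a katanin-like severing enzyme, with 7.30, 9.77 and 9.39 in Trim9 KO retinas and 10.22, 9.95 and 11.31 in WT retinas (-1.67, SE 1.03). With it, 7 of 10 stathmins and severing enzymes had a lower mean (median -0.54).

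Partners of the transport motors were mixed. Of 9 kinesin light chains and adaptors 7 were lower (median -0.45), led by Trak2, which links mitochondria to kinesin, at 10.72, 9.94 and 10.60 in Trim9 KO retinas and 10.65, 12.90 and 12.83 in WT retinas. Among 18 dynactin subunits and dynein regulators 10 were lower (median -0.12), with Actr1a, which forms the dynactin filament, at -2.36 (SE 1.17). Of 6 dynein light chains 4 were higher (0.33), although Dynlrb1 was at -1.12 (SE 1.00). In all 3 of these named genes the genotypes overlapped.

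Tubulin folding cofactors had 9 of 12 lower (median -0.44), with the prefoldin subunit Pfdn5 at -1.80 (SE 1.08). Of 15 plus-end proteins 9 were lower (-0.32), with Ckap5, which speeds polymer growth, at 8.15, 9.23 and 8.28 in Trim9 KO retinas and 9.19, 10.59 and 11.95 in WT retinas (-2.03, SE 1.03). Tubulin modifying enzymes were mixed, 12 of 21 higher (0.14). Ttll9, a polyglutamylase of cilia and flagella, had 13.32, 9.93 and 8.83 in Trim9 KO retinas and 10.06, 5.84 and 5.03 in WT retinas (3.72, SE 1.52), and WT replicate 1 lay inside the Trim9 KO range. Other MAPs had 11 of 18 lower (-0.11), with Eml1, whose loss in mice gives a malformed cortex, at 6.51, 5.35 and 4.66 in Trim9 KO retinas and 6.05, 10.29 and 10.23 in WT retinas. The gamma-tubulin complex had 6 of 11 higher (0.02), although Nedd1, which recruits it, was at -2.10 (SE 1.05).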

How the data were processed

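RNA of 3 Trim9 KO and 3 WT adult retinas was read on Affymetrix arrays. The deposited values are linear intensities, scaled by the authors so that each array has the same mean after the lowest and highest 2% are left out. The submitters' notes name MAS5 and the methods state RMA, and the values fit the first, being linear with unequal medians. The scanner files were not used here. After removal of 64 controls, 45037 probe sets were compared as log2(intensity + 16) with limma 3.58.1 (lmFit, eBayes) in R 4.3.3 with Benjamini-Hochberg adjustment at 0.05 and no block. The fit was tested on simulated data. Exact permutation tests were two-sided. Figures used Python 3.11.15 and matplotlib 3.10.9. No 2 arrays were identical. The labels name separate mice only as a group, so p-values measure the spread between these samples.

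Genes named were Trim9, members whose genotypes did not overlap, the 2 members of each role group with the largest limma statistic, 17 members known from neurons, and the leading gene of each partner list. Another 13 genes are named with values after these were seen. Members, role groups and lists were chosen with earlier results of these data known. The comparison was repeated with equal array medians, with quantile normalization, with a pseudocount of 1 or 64, without dim probe sets, with a replicate block, with a robust prior and trend in eBayes, with all probe sets of a gene averaged, and with each array left out.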

Additional observations from a re-analysis of the deposited data

How the results depend on the processing

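No alternative brought any probe set past an adjusted p of 0.05. The members' median of 0.30 was -0.06 without Trim9 KO replicate 1 and -0.03 with equal array medians. That of all kinesins (0.14) was -0.16 and -0.18 in these settings, and -0.03 without WT replicate 3. With single arrays left out or with either scaling, the medians of tubulins, dynein subunits, MAPs and division kinesins kept their sign. That of transport kinesins turned only without Trim9 KO replicate 3 (0.06). The alternatives for the 2 kinesin groups, and for 13 genes named after their values were seen, were added after the data were examined. Members with all Trim9 KO arrays above all WT arrays numbered 8, and 2 with quantile normalization, 1 with equal array medians, 5 without dim probe sets and 9 to 17 with an array left out, the 17 without WT replicate 2. Members with all Trim9 KO arrays below numbered 1, and 0 with equal medians and 3 to 6 with an array left out. Smaller groups overlap less often by construction, in members as in all other genes. The counts with an array left out are given without the share of all genes in the same setting. They therefore cannot be compared with the 8 and the 1 of the full groups, and the rise to 17 says nothing particular about the members. Of the 55 named genes 34 kept their sign throughout. The sign turned, when all probe sets of a gene were averaged, for Tubg2 (0.74), Map2 (0.57), Kif5b (-0.16), Kif17 (1.23), Map1a (-0.34), Pfdn5 (0.017), Kif11 (0.50), Kif5c (0.55), Kif21b (1.21) and Kif16b (-0.25). It turned with quantile normalization for Tuba1a (-0.028) and with equal array medians for Dync1li1 (-0.18); the cause was not tested. With single arrays left out it turned for Tubg1 (-1.39 to 0.80), Tuba1a (-0.25 to 1.14), Tubb3 (-0.65 to 1.00), Tubb4a (-0.79 to 1.91), Kif3b (-0.90 to 0.28), Kif17 (-0.49 to 0.26), Map1b (-1.23 to 0.0078), Mapt (-1.52 to 0.26), Kif23 (-0.053 to 2.67), Kif14 (-0.64 to 2.45), Kif4 (-1.75 to 0.026), Kif5c (-0.21 to 0.058), Kif16b (-0.039 to 0.67) and Dync1li1 (-0.98 to 0.84). Deviations of same-numbered arrays correlated at -0.23 to 0.033, and those of differently numbered arrays at -0.29 to 0.28. These values cannot tell whether replicate numbers paired the arrays. With the replicate block 0 probe sets passed and the members' median stayed at 0.30. With 3 arrays a group and standard errors near 1 log2 unit, only larger differences could be detected.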
